A study of Mus musculus with 10 samples.

Results

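Hepatobiliary transcription factors were examined in NMC cells, a mouse cholangiocyte line; cholangiocytes form the epithelial lining of bile ducts. The set held 8 named genes: Hnf4a, Foxa1, Foxa2, Foxa3, Onecut1, Sox4, Sox9 and Elf3. They were found by symbol in a deposited table of 18407 genes, and all 8 had a row. The cells, without any further treatment, had been cultured as double spheroids for 6 days in either collagen I at 1 mg/mL (5 libraries) or laminin and collagen I at 3:1 by volume (5 libraries, called laminin-rich here). Both groups come from 1 cell line, and the laminin-rich matrix also contains collagen I. All libraries were called biological replicates in the series' design, but how cultures were divided is not stated, so a p-value refers only to the variation among these libraries, which may be partly technical.

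These factors specify and maintain the liver and its ducts. HNF4A is a nuclear receptor that drives hepatocyte genes and epithelial polarity, and the FOXA proteins are forkhead pioneer factors that open chromatin at liver genes. ONECUT1 (HNF6) acts in bile duct formation, SOX9 and SOX4 are HMG-box factors that together pattern the developing ducts, and ELF3 is an epithelium-specific ETS factor.

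Hnf4a is transcribed from separate promoters, of which the upstream start (P2) and the downstream start (P1) lie 40.3 kb apart, and a count per gene does not tell their transcripts apart. Their sequences are shown because Hnf4a had the largest difference between matrices among the factors tested, and the Foxa2 window because Foxa2 was the leading FOXA gene. The windows are on the sense strand, from RefSeq on GRCm38.p6, and capitals mark a match to the ONECUT motif ATTGAT on either strand. They are Hnf4a P2 (chr2:163506607-163506806, plus strand, bases -250 to -51 from the start), Hnf4a P1 (chr2:163546905-163547154, plus strand, -250 to -1) and the most upstream Foxa2 start (chr2:148046970-148047219, minus strand, -250 to -1).
Hnf4a P2: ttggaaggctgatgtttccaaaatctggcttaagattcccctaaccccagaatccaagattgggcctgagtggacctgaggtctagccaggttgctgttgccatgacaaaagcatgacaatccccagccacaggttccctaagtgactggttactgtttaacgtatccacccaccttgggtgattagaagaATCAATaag
Hnf4a P1: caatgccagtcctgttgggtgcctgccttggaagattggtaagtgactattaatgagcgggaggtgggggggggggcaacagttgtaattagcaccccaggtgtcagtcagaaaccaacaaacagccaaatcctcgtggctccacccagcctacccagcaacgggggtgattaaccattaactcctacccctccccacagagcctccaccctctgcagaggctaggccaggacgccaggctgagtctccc
Foxa2: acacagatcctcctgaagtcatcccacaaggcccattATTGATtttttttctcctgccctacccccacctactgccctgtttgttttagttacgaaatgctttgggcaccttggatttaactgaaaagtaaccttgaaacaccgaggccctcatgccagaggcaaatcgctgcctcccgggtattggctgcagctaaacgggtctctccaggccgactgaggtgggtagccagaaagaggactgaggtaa

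Of the 8 genes, 7 matched RefSeq starts, with 10 windows of 250 bases before the start. The ONECUT motif occurred in the Hnf4a P2 window, 59 bases before the start, and in the most upstream Foxa2 window, 213 bases before it, against 6.72% of 32851 windows of all genes. A FOXA motif (TGTTTAC or TGTTTGC) was found in the Foxa1 window, 141 bases before the start, against 7.29% of all windows. The ETS motif (AGGAAGT or CGGAAGT) occurred in another Foxa2 window, against 12.2%. No window of the 10 held the searched HNF4 letters (CAAAGTCCA or CAAAGGTCA, 0.807% of all windows) or SOX letters (ACAATGG or ACAAAGG, 7.92%). Both strands were searched, and a match describes letters only.

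Library totals ran from 4424725 to 8129979 counts, and the upper limit for a gene with no count, 3 counts, equalled 0.369 to 0.678 CPM of the library totals. CPM values below are counts scaled to a common library size with TMM factors. Such limits cover counting error only. The libraries carry code letters of unstated meaning, B and D in collagen and E and F in laminin, so that letter and matrix cannot be told apart. Libraries also differed in how values depended on transcript length, with slopes from -0.37 to 0.18 log2 units per doubling of length. Of the cholangiocyte markers, Sctr had no count in any library and Cldn4 and Cldn7 were below 1 CPM, while Krt8, Krt19, Krt18 and Spp1 had the highest levels, with means from 714 (Spp1 in laminin) to 1229 CPM (Krt8 in collagen). Sox9 is on that list too. Endothelial markers summed to at most 1.12 CPM in any library and leukocyte markers to at most 8.54 CPM, and fibroblast and stellate markers summed to 26.0 to 33.9 CPM in collagen and 24.2 to 57.3 CPM in laminin.

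The matrices were compared across all genes with edgeR's quasi-likelihood test and Benjamini-Hochberg adjustment. Of 10789 genes tested, 16 (0.148%) had an adjusted p under 0.05, and none of the 7 factors tested was among them. At an unadjusted p under 0.05, 1 of the 7, Hnf4a, was higher in laminin, where 6.68% of all genes were higher and 4.95% lower. DESeq2 called 1.94% of all genes and none of the factors. For no factor did the CPM ranges of the matrices separate, which they did for 3.23% of all genes. The factors' median log2 difference was 0.29, against 0.01 over all genes. That median is the value of Foxa3, a gene of low counts (SE 0.29), and Foxa2, Sox4 and Sox9 gave 0.02, 0.03 and 0.11. With 1 surrogate variable as a term, 1 factor passed, Elf3, and 438 genes passed in all.

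Hnf4a (ENSMUSG00000017950, chromosome 2, 163506808 to 163572910, plus strand, 10 exons in the longest transcript) was at 62.6, 80.1, 68.2, 101 and 87.5 CPM in collagen replicates 1 to 5. In laminin replicates 1 to 5 it was at 113, 114, 132, 62.0 and 125 CPM. Thus 4 laminin libraries lay above every collagen library, and laminin replicate 4 lay below every collagen library. The means were 79.9 ± 15.3 and 109 ± 27.5 CPM (SD, n = 5 per group). The log2 difference was 0.45 (SE 0.19, 95% interval 0.03 to 0.87), or 1.37-fold, and did not pass in edgeR (unadjusted p = 0.0376, adjusted p = 0.390). Without laminin replicate 4 it was 0.58 (SE 0.15, adjusted p = 0.137 in edgeR).

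Within collagen, the letter D libraries had 87.5 and 101 CPM of Hnf4a and the letter B libraries 62.6 to 80.1 CPM. Without the letter B libraries the log2 difference of Hnf4a was 0.18, and without the letter D libraries it was 0.63. Neither passed (adjusted p = 0.604 and 0.296 in edgeR). The difference kept its sign under all 21 alternatives and passed under none, at adjusted p from 0.0728 to 0.755.

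**Figure D1:**
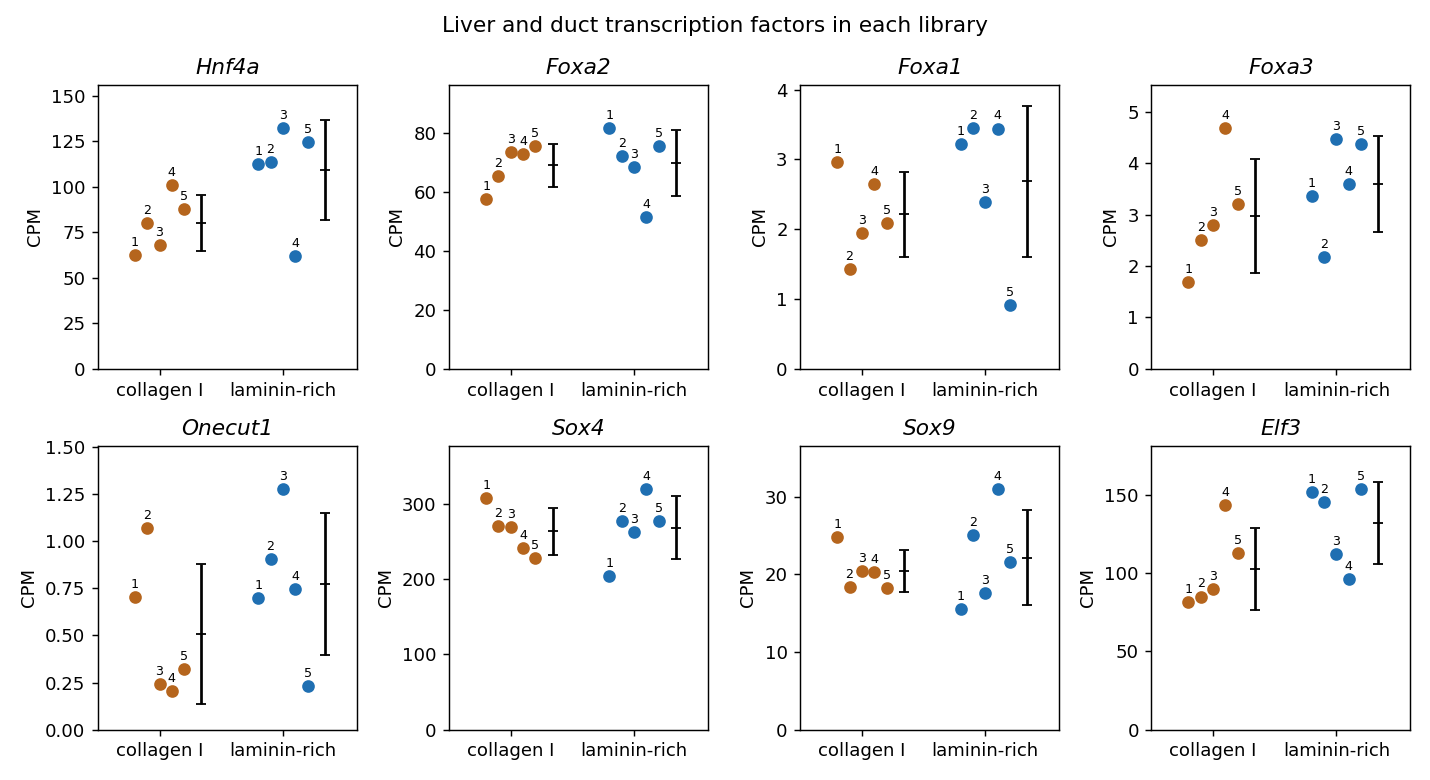
CPM of each factor (y axis, from 0) in the 5 collagen I and 5 laminin-rich libraries (x axis), with replicate numbers beside the points and the mean ± SD beside each group. For Hnf4a, laminin replicate 4 sits at 62.0 CPM while the other laminin libraries sit at 113 to 132 CPM, and in each panel the groups overlap.

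Markers of hepatocytes, in which Hnf4a is abundant, were given beside this result. Of 17 in the table, 4 (Cyp3a11, Cyp2e1, Pck1 and Ass1) had no count and 4 averaged 1 CPM or more over the 10 libraries. Their sum was 20.9 to 37.0 CPM in collagen and 23.6 to 82.3 CPM in laminin. The highest sum was in laminin replicate 4, the library with the lowest Hnf4a, and the lowest laminin sum was in replicate 1. Alb, the plasma protein albumin, made up much of it, at 12.7 to 25.6 CPM in collagen and at 16.1, 33.6, 36.1, 62.0 and 29.7 CPM in laminin replicates 1 to 5. In bulk RNA, fewer cells of a type and less RNA per cell cannot be told apart, and the part of such cells in the Hnf4a difference was not tested.

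Among the pioneer factors, Foxa2 (ENSMUSG00000037025, chromosome 2, 148042877 to 148046969, minus strand) was the most abundant. It measured 57.7, 65.4, 73.5, 73.0 and 75.6 CPM in the collagen libraries and 81.6, 72.2, 68.5, 51.6 and 75.5 CPM in those of laminin. The ranges overlapped almost entirely, with the highest and the lowest of all 10 values both in laminin. Its log2 difference was 0.02 (SE 0.13, 95% interval -0.27 to 0.30, adjusted p = 0.973 in edgeR), and its sign changed with library totals in place of TMM scaling (-0.00292). The interval corresponds to 0.830 to 1.23-fold.

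Foxa3 (ENSMUSG00000040891, chromosome 7, 19013284 to 19023538, minus strand) measured 1.69, 2.50, 2.79, 4.68 and 3.20 CPM in the collagen libraries and 3.36, 2.18, 4.47, 3.59 and 4.37 CPM in those of laminin. Foxa1 (ENSMUSG00000035451, chromosome 12, 57540628 to 57546916, minus strand) measured 2.96, 1.43, 1.94, 2.64 and 2.08 CPM in the collagen libraries and 3.22, 3.45, 2.40, 3.44 and 0.921 CPM in those of laminin. Both groups overlapped for each gene. These values rest on 12 to 28 counts per library for Foxa3 and 4 to 23 for Foxa1, so the intervals were wide. They ran from -0.33 to 0.92 for Foxa3 (log2 difference 0.29, SE 0.29) and from -0.39 to 1.01 for Foxa1 (0.31, SE 0.32), with adjusted p of 0.747 and 0.765 in edgeR. Leaving out 1 library moved the difference to between 0.12 (without collagen replicate 1) and 0.49 (without collagen replicate 4) for Foxa3. For Foxa1 it moved to between 0.17 (without collagen replicate 2) and 0.49 (without laminin replicate 5).

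Per kilobase of the longest transcript, Foxa2 accounted for 89.5% to 94.8% of the summed FOXA level in each library, Foxa3 for 2.88% to 6.51% and Foxa1 for 0.761% to 3.98%. Foxa2 was thus the leading FOXA gene in each of the 10 libraries.

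Onecut1 (ENSMUSG00000043013, chromosome 9, 74861921 to 74891781, plus strand) had 5, 6, 2, 1 and 2 counts in the collagen libraries and 5, 5, 8, 5 and 1 in the laminin libraries, and was left out by the filter on low counts. Its sums were 16 counts in collagen and 24 in laminin. With no filter, the log2 difference was 0.62 (SE 0.52, 95% interval -0.49 to 1.72, adjusted p = 0.654 in edgeR). The interval covers a lower as well as a higher level in laminin, and no difference was detectable at this depth. The ONECUT level was mostly that of the related Onecut2, which held 94.1% to 98.2% of the summed per-kilobase level of Onecut1, Onecut2 and Onecut3. Onecut2 averaged 154 ± 39.9 CPM in collagen and 195 ± 52.7 CPM in laminin (log2 difference 0.35, SE 0.20, adjusted p = 0.539 in edgeR).

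Sox4 (ENSMUSG00000076431, chromosome 13, 28948919 to 28953713, minus strand, a single exon) had the highest counts of the set. It measured 307, 270.0, 269, 241 and 228 CPM in the collagen libraries and 204, 276, 263, 319 and 277 CPM in those of laminin. The extremes of all 10 libraries were again both in laminin. The log2 difference was 0.03 (SE 0.13, 95% interval -0.25 to 0.30, adjusted p = 0.954 in edgeR). Its sign was negative without collagen replicate 4 or 5, without laminin replicate 2 or 4, without the letter D libraries, with the length and GC offset and with 1 surrogate variable. Exons of Sox4 overlap those of Gm26735 on the other strand, and whether counting used strand is not stated, so its value is uncertain to that extent.

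Sox9 (ENSMUSG00000000567, chromosome 11, 112782224 to 112787760, plus strand, 3 exons) measured 24.8, 18.4, 20.4, 20.3 and 18.3 CPM in the collagen libraries and 15.5, 25.0, 17.6, 31.0 and 21.6 CPM in those of laminin. Collagen values lay inside the laminin range, and the spread within laminin was larger (coefficient of variation 27.8% against 13.0%, a difference that was not tested). The log2 difference was 0.11 (SE 0.18, 95% interval -0.29 to 0.51, adjusted p = 0.860 in edgeR), and it was -0.06 without laminin replicate 4.

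Elf3 (ENSMUSG00000003051, chromosome 1, 135253575 to 135258568, minus strand, 9 exons) measured 81.7, 85.1, 89.6, 144 and 113 CPM in the collagen libraries and 152, 145, 112, 95.9 and 154 CPM in those of laminin. In collagen the letter D libraries (144 and 113 CPM) lay above the letter B libraries (81.7 to 89.6 CPM), and 3 laminin libraries lay above every collagen library. The means were 103 ± 26.0 and 132 ± 26.2 CPM (SD, n = 5 per group). The log2 difference was 0.36 (SE 0.18, 95% interval -0.03 to 0.75, unadjusted p = 0.0668, adjusted p = 0.459 in edgeR).

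Elf3 was the factor whose call changed with processing. With 1 surrogate variable the log2 difference was 0.50 (SE 0.10, adjusted p = 0.0158 in edgeR). Over all 21 alternatives its adjusted p lay between 0.0158 and 0.972. Without the letter B libraries it was 0.01, and without the letter D libraries 0.62 (adjusted p = 0.972 and 0.184 in edgeR). Its exons overlap those of Gm26642 on the other strand.

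**Figure D2:**
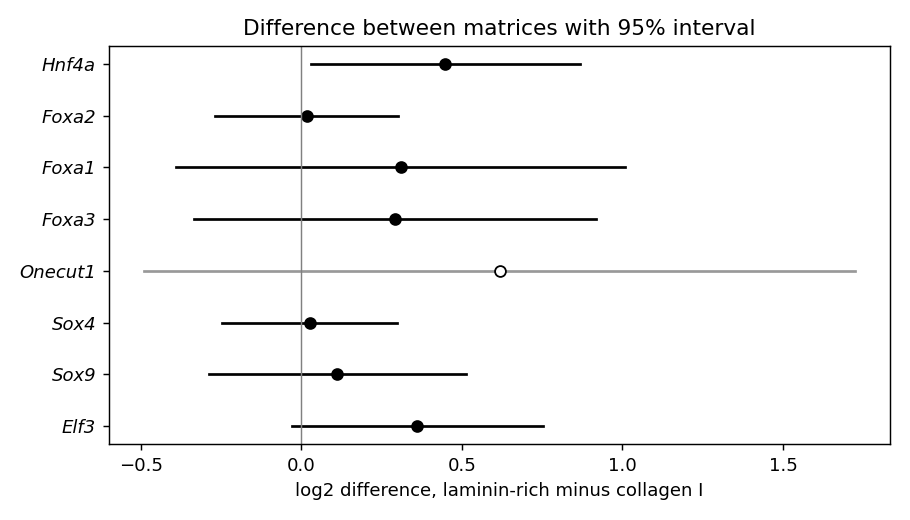
Log2 difference of each factor, laminin-rich minus collagen I (x axis), with its 95% interval (line) from edgeR's quasi-likelihood fit. The open symbol for Onecut1 comes from the fit with no filter on low counts; of the 8 intervals, that of Hnf4a (0.03 to 0.87) lies above 0 and the others include 0.

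On the scale of CPM per kilobase of the longest transcript, over all 10 libraries, Elf3 (55.9 ± 13.8) and Sox4 (55.4 ± 7.20) were the highest. Each exceeded the other in 5 of 10 libraries, so their order is not resolved. Foxa2 followed at 32.6 ± 4.24, Hnf4a at 21.7 ± 5.96, Sox9 at 5.15 ± 1.10, Foxa3 at 1.61 ± 0.498, Foxa1 at 0.767 ± 0.269 and Onecut1 at 0.162 ± 0.0961 (SD, n = 10). The order of Foxa3 above Foxa1 held in 8 of 10 libraries, and that of every other neighbouring pair from Sox4 down in 10 of 10.

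The libraries differed from each other within each matrix. In some of them, Sox4 and Sox9 lay on the other side of the mean from Hnf4a, Foxa2 and Elf3. In collagen, replicate 1 had the highest Sox4 and Sox9 and the lowest Hnf4a, Foxa2 and Elf3. In laminin, replicate 4 likewise had the highest Sox4 and Sox9 and the lowest Hnf4a, Foxa2 and Elf3. Replicate 1 of laminin had the lowest Sox4 and Sox9 and the highest Foxa2. Not every library was divided in this way. Replicate 5 of laminin had the highest Elf3 (154 CPM) together with Sox4 at 277 CPM, above its laminin mean of 268 CPM. The plot of deviations by library shows these libraries beside the others.

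**Figure D3:**
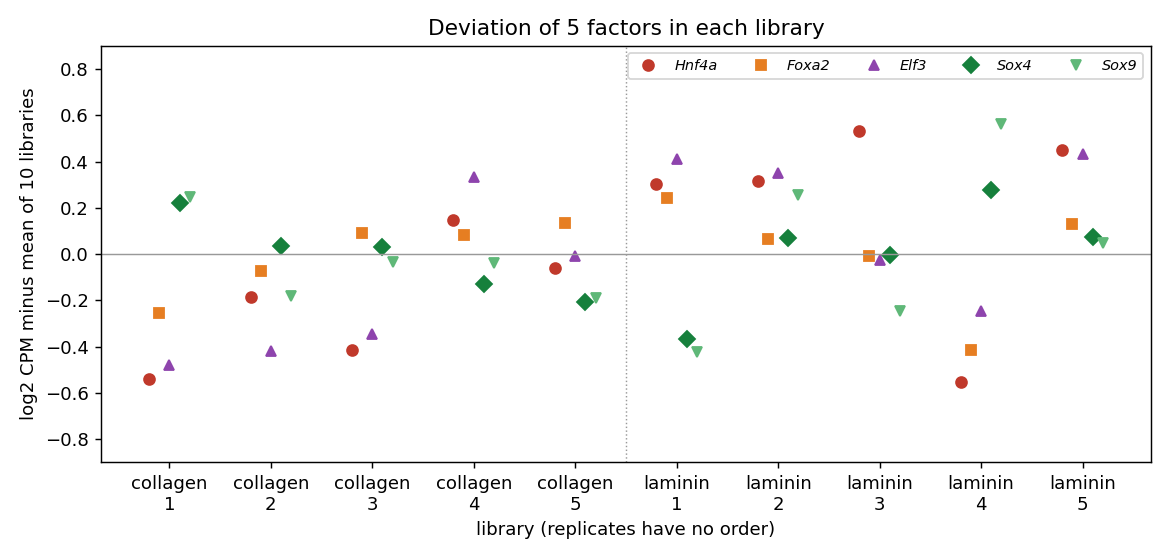
Log2 CPM of 5 factors minus each gene's mean over the 10 libraries (y axis, log2 units) in each library (x axis, whose order carries no meaning). Collagen replicate 1 and laminin replicate 4 have Sox4 and Sox9 above 0 and Hnf4a, Foxa2 and Elf3 below 0, and laminin replicate 1 the reverse.

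Correlations were computed over the 10 libraries for the 10 pairs of the 5 factors with a mean of at least 20 CPM, with two-sided permutation p-values (100000 resamples) adjusted over the pairs. The points share libraries, and depth and length dependence vary among them. Values were shuffled over all 10 libraries regardless of matrix or code letter, also where they were centred. The p-values therefore treat the libraries as interchangeable, although Hnf4a and Elf3 differed between letters B and D. Sox4 and Sox9 gave Pearson's r = 0.85 (permutation p = 0.00215, adjusted 0.0181) and Spearman's rho = 0.88 (permutation p = 0.00153, adjusted 0.0153). Without laminin replicates 1 and 4, the libraries farthest from the median of Sox4, r was 0.66, and after the dependence on length and GC had been removed it was 0.82 (permutation p adjusted 0.0314).

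Hnf4a and Elf3 gave r = 0.81 (permutation p = 0.00800, adjusted 0.0267) and rho = 0.72 (permutation p = 0.0225, adjusted 0.0749). Without collagen replicate 1 and laminin replicate 4, r was 0.75, and with the trend removed it was 0.80 (permutation p adjusted 0.0315). Foxa2 and Sox4 were opposed at r = -0.83 (permutation p = 0.00362, adjusted 0.0181) and rho = -0.73 (permutation p = 0.0203, adjusted 0.0749). That r was -0.68 without collagen replicate 1 and laminin replicate 4, and -0.48 with the trend removed (permutation p adjusted 0.291), so it did not hold with the trend removed.

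Foxa2 and Sox9 gave r = -0.75 (permutation p = 0.0121, adjusted 0.0303) and rho = -0.56 (permutation p = 0.0972, adjusted 0.194). That relation rests on collagen replicate 1 and laminin replicate 4, without which r was -0.20. Its r was -0.66 with the trend removed (permutation p adjusted 0.128), so it did not hold there either, and -0.76 with values centred within each matrix (permutation p adjusted 0.0182). The other 6 pairs had adjusted permutation p from 0.0505 to 0.487, and 4 of them passed once values were centred within each matrix. These were Hnf4a and Foxa2 (r = 0.79, permutation p adjusted 0.0182), Foxa2 and Elf3 (r = 0.78, permutation p adjusted 0.0172), Hnf4a and Sox9 (r = -0.71, permutation p adjusted 0.0319) and Sox4 and Elf3 (r = -0.67, permutation p adjusted 0.0407). For these 4 pairs, the uncentred r without the 2 libraries farthest from the first factor's median was 0.18, 0.63, 0.02 and -0.34. With the trend removed none of the 4 passed (permutation p adjusted 0.291 to 0.334). Each code letter holds 2 or 3 libraries, and each matrix 5, too few for a correlation within them. For the pairs named first, the centred r was 0.85 for Sox4 and Sox9, 0.74 for Hnf4a and Elf3 and -0.83 for Foxa2 and Sox4.

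The genes with profiles nearest to each of these 5 factors were found among 7876 other genes with a mean of at least 20 CPM, by the root mean square difference of centred log2 CPM over 10 libraries. Nearest to Hnf4a was Hr, which encodes a nuclear corepressor, at 0.0934 log2 units, against a median of 0.443 over those genes, followed by Smpd3 (0.134) and Plek2 (0.141). Nearest to Foxa2 were Rangap1 (0.0718), Afg3l1 (0.0792) and Fkbp5 (0.0824), and nearest to Elf3 were Gmds (0.102), Tspan7 (0.120) and Arhgef16 (0.124). Cp, which encodes the plasma ferroxidase ceruloplasmin, was nearest to Sox4 (0.0595), before Sfpq (0.0702) and Cdca7 (0.0909). For Sox9 they were Nfatc1 (0.144), Cp (0.154) and Sox4 (0.154). After removal of that trend in length and GC, 1 of the 3 genes nearest to Hnf4a stayed among its nearest 3, and 0 of 3 for the other factors.

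Other transcription factors of the liver and ducts were taken as a list of 44, of which 29 were tested. None passed over all genes in edgeR. At an unadjusted p under 0.05, 5 were higher and 0 lower, against 6.68% and 4.95% of all genes. A difference above 0 was found for 27 of 29, against 5579 of the 10789 genes. The median was 0.14, against 0.01 over all genes. Gata6, an endodermal factor, was at 109 ± 3.77 and 118 ± 16.2 CPM (log2 difference 0.11, SE 0.11). Cebpa and Hhex gave 0.22 (SE 0.16) and 0.14 (SE 0.14), and Foxm1 and Nfib, the most abundant of the list, 0.16 (SE 0.08) and 0.03 (SE 0.13).

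Prox1, a hepatoblast and hepatocyte factor, had 0 counts in all 10 libraries, and Nr5a2 had 51 in all and was not tested. Zhx2, a repressor of fetal liver genes, came nearest to the threshold in the list. It measured 38.4 ± 5.03 CPM in the collagen libraries and 56.4 ± 3.85 CPM in those of laminin, with every laminin library above every collagen library (log2 difference 0.55, SE 0.11, adjusted p = 0.0803 in edgeR and 0.00116 in DESeq2). Bcl6, a zinc finger repressor, was higher in DESeq2 (adjusted p = 0.00918) and not in edgeR (log2 difference 0.68, SE 0.16, adjusted p = 0.109). Both were singled out after their values were seen. Exons of Bcl6, Cebpa and Gata6 also overlap those of genes on the other strand. The same holds for Foxq1, Gabpa, Elf2, Ezr, Krt8, Krt7, Pklr and Notch3 below. The values of all these genes are uncertain in the same way.

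In the factors' own families, none of 19 other forkhead genes, 4 other SOX genes or 16 other ETS genes tested passed in edgeR over all genes. At an unadjusted p under 0.05 the counts were 4 higher among forkhead genes, 1 lower among SOX genes, and 4 higher and 1 lower among ETS genes. The shares over all genes were 6.68% higher and 4.95% lower. Differences above 0 were found for 16 of 19 forkhead, 2 of 4 SOX and 11 of 16 ETS genes, against 5579 of all 10789 genes. The medians were 0.27, -0.17 and 0.12, against 0.01 over all genes. Foxp4, an abundant forkhead gene, gave -0.08 (SE 0.14). Foxq1, named after its values were seen, was at 103 ± 8.21 and 134 ± 14.4 CPM without overlap. Its difference was 0.38 (SE 0.10, adjusted p = 0.178 in edgeR and 0.0297 in DESeq2). The other SOX genes included Sox11 (0.07, SE 0.14), Sox12 (-0.40, SE 0.16, adjusted p = 0.344 in edgeR) and Sox13 (-0.59, SE 0.28). Of the ETS genes, Ets2 was at 129.6 ± 5.16 and 160.3 ± 10.4 CPM without overlap (0.31, SE 0.08, adjusted p = 0.197 in edgeR and 0.0102 in DESeq2). Elf2 gave 0.11 (SE 0.13) and Gabpa -0.03 (SE 0.17). Without letter B, which leaves 2 collagen libraries, Elf2 gave 0.38 (adjusted p = 0.0425 in edgeR). Ehf, the close relative of Elf3 and named after its values were seen, was at 16.5 ± 4.45 and 31.9 ± 12.2 CPM (0.95, SE 0.29, adjusted p = 0.239 in edgeR). Its lowest value of all 10 libraries was in laminin replicate 1, at 12.3 CPM, and without that library Ehf passed (1.16, SE 0.19, adjusted p = 0.0285 in edgeR). The lower ETS gene was Etv4, also named after its values were seen (-0.57, SE 0.25, adjusted p = 0.407 in edgeR).

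Known liver targets of HNF4A and the FOXA factors were mostly at very low counts: of 51 on the list, 49 were in the table, 14 had no count and 9 were tested. None passed in edgeR over all genes, with 3 higher and 2 lower at an unadjusted p under 0.05. Of all genes, 6.68% were higher and 4.95% lower. Alb was at 18.8 ± 5.01 and 35.5 ± 16.7 CPM (log2 difference 0.91, SE 0.30, adjusted p = 0.267 in edgeR). Ttr, the carrier transthyretin, named after its values were seen, was at 6.25 ± 4.48 and 11.8 ± 3.94 CPM (0.95, SE 0.40). The 2 lower genes, also named after their values were seen, were Mttp and Hgfac. Mttp gave -0.42 (SE 0.17, adjusted p = 0.356 in edgeR) without overlap between matrices, and its exons overlap those of genes on the other strand. Hgfac gave -0.51 (SE 0.20, adjusted p = 0.347 in edgeR). Rbp4, the retinol carrier and the most abundant of the list, was at 317 ± 79.8 and 229.5 ± 73.8 CPM (-0.46, SE 0.22), and Pklr, liver pyruvate kinase, gave 0.15 (SE 0.12). The listed targets thus had values on both sides of 0.

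Epithelial junction and brush border genes linked to HNF4A numbered 22, of which 21 were in the table and 14 were tested and none passed in edgeR over all genes. At an unadjusted p under 0.05, 5 were higher and 0 lower, and 13 of 14 had a difference above 0 (median 0.23). Among all 10789 genes, 6.68% were higher and 4.95% lower, and 5579 had a difference above 0. Cdh1, which encodes E-cadherin, was at 432 ± 71.6 and 577 ± 176 CPM (log2 difference 0.42, SE 0.19, adjusted p = 0.422 in edgeR). Its highest value, 849 CPM, was in laminin replicate 1 and its lowest laminin value, 386 CPM, in replicate 4. Tjp1 and Ezr gave 0.16 (SE 0.27) and 0.13 (SE 0.11). Tjp1, a tight junction scaffold, depended on the collagen libraries used, at 0.92 without letter B (SE 0.17, adjusted p = 0.0204 in edgeR) and -0.20 without letter D. Dropping letter B leaves 2 collagen libraries, those with the most negative length slopes (-0.37 and -0.19), and 2083 genes passed in that setting. The part of length in the Tjp1 value was not tested. Cdhr5, a brush border cadherin named after its values were seen, was at 4.82 ± 2.79 and 10.1 ± 4.58 CPM (1.08, SE 0.41, adjusted p = 0.332 in edgeR).

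Duct genes downstream of SOX9, SOX4 or ELF3 numbered 32, of which 22 were tested and none passed in edgeR over all genes. At an unadjusted p under 0.05, 2 were higher, against 6.68% of all genes, and the median was -0.08. Krt8, Krt19 and Krt18, the duct keratins, gave -0.13 (SE 0.18), -0.13 (SE 0.23) and -0.30 (SE 0.20). Muc1, a membrane mucin, was at 32.2 ± 14.3 and 72.2 ± 16.9 CPM (1.17, SE 0.28, adjusted p = 0.124 in edgeR and 0.00790 in DESeq2) and is an example chosen after its value was seen.

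Notch and TGF-beta genes, which act upstream of Sox9 and of ductal fate in liver development, gave 23 tested genes of 28, none passing in edgeR over all genes and 4 higher at an unadjusted p under 0.05. The share higher among all genes was 6.68%. Notch2, the main receptor in duct development, was at 177 ± 37.9 and 239.7 ± 70.7 CPM (log2 difference 0.44, SE 0.20, adjusted p = 0.424 in edgeR), and Smad3 and Smad4 gave -0.04 (SE 0.10) and -0.06 (SE 0.09). The ligand Jag1 (0.73, SE 0.15) and the receptor Notch3 (1.16, SE 0.24), both named after their values were seen and without overlap between matrices, had adjusted p of 0.0807 and 0.0879 in edgeR and passed in DESeq2 (adjusted p = 0.00212 and 0.00182).

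**Figure D4:**
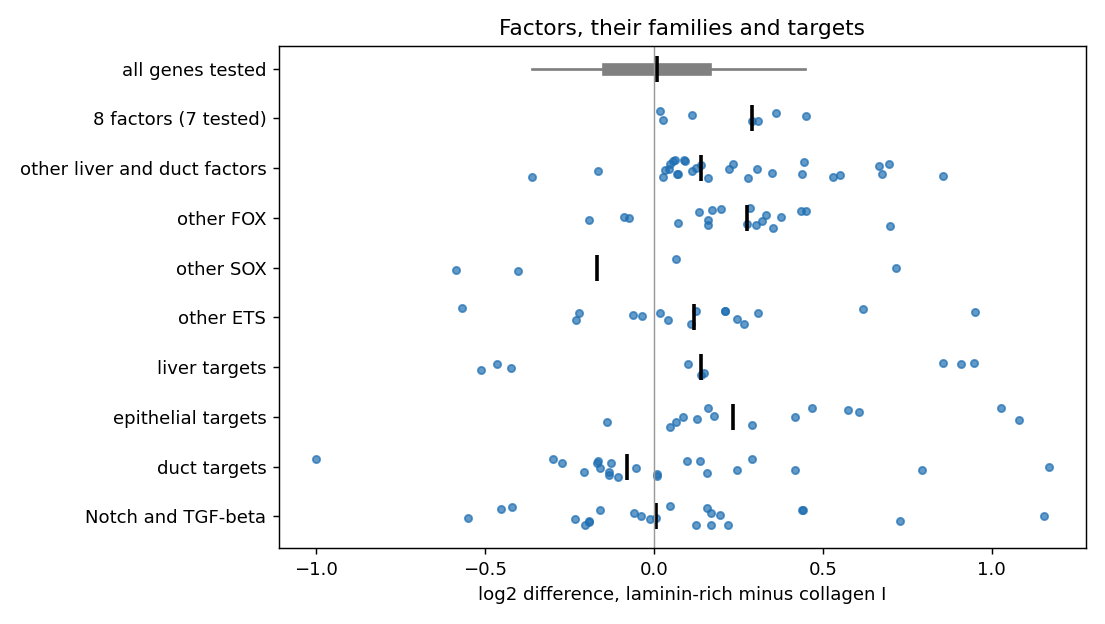
Log2 difference, laminin-rich minus collagen I (x axis), of each tested gene (points) in the lists on the y axis, with the list median as a vertical bar. The grey bar for all genes tested spans the middle 50% and the line the middle 90% of genes; the medians are 0.29 for the 7 factors tested, 0.23 for epithelial targets, -0.08 for duct targets and 0.01 over all genes.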

How the data were processed

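RNA was sequenced from 10 libraries, with stranded poly(A) libraries made from 30 ng of RNA, per the labels' protocols. The authors deposited 1 table of whole-number counts per gene symbol, with no normalization. The submitters' processing notes name GRCm38 (mm10) and DESeq2. Which aligner, counter, strand option and gene models were used is not given in the sources used here.

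Groups came from the library titles. Totals ran from 4424725 to 8129979 counts. Counts were filtered with filterByExpr, leaving 10789 of 18407 genes, scaled by TMM and tested with edgeR 4.0.16 (limma 3.58.1, R 4.3.3), with Benjamini-Hochberg adjustment over all genes tested and a threshold of 0.05. Alternatives used DESeq2 1.42.0, limma-voom, sva 3.50.0, other scalings and filters, a length and GC offset, and left-out libraries. Correlations and profiles used log2 CPM with a prior count of 2. Gene positions, lengths and overlaps came from GENCODE M21 on GRCm38, and promoters from RefSeq on GRCm38.p6.

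The factors and lists were chosen with earlier results of these data known. Named genes are the 8 factors, the 3 most abundant tested genes of each list and any that passed, 8 stated liver and duct factors, and the 3 nearest profiles of each factor with a mean of at least 20 CPM. Some genes that this rule names are not reported here.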

Additional observations from a re-analysis of the deposited data

Results flagged for a closer look

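The Hnf4a level of laminin replicate 4 stood apart from the other 4 laminin libraries, at 5.96 log2 CPM against 6.82 for the next lowest. The gap was 0.790 of the range of the group, above Dixon's 95% critical value for 5 samples. Of 14 groups examined, 1 stood apart in this way, and chance alone gives about 1 in 20.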

How the results depend on the processing

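The count of 16 genes past the threshold in edgeR was 209 with DESeq2, 29 with no filter, 102 with the length and GC offset, 438 with 1 surrogate variable, 5 without the letter D libraries and 2083 without the letter B libraries. Leaving out 1 library at a time gave 0 to 64 genes. Dropping collagen replicate 3, collagen replicate 5 or laminin replicate 2 left 0 genes (1167, 940 and 977 at an unadjusted p under 0.05 in edgeR), and dropping collagen replicate 2 left 2. Dropping laminin replicate 3 or 5 left 5 genes, whereas 36 passed once laminin replicate 4 was dropped and 64 once laminin replicate 1 was. Of the factors, 1 passed with 1 surrogate variable (Elf3) and 0 otherwise. Of the list genes, 0 in the main setting, 8 passed with DESeq2, 26 without letter B, 3 with the offset, 12 with 1 surrogate variable and 0 to 2 with 1 library left out. The cause of these changes was not tested.

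Same-numbered libraries of the matrices correlated at -0.33 to 0.48. For no number was each library the best match of the other, so a pairing by number was not shown. With a replicate block 0 genes passed in edgeR (1049 at an unadjusted p under 0.05), and 0 factors. Without the block, 16 genes passed in edgeR (1255 at an unadjusted p under 0.05), and 209 in DESeq2.

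Some of the genes named also passed in edgeR under other settings. Without letter B, with 2 collagen libraries left, they were Tjp1 (0.92), Elf2 (0.38), Zhx2 (0.52), Bcl6 (0.87), Jag1 (0.77) and Notch3 (1.42). With the offset they were Zhx2 (0.48), Muc1 (1.25) and Jag1 (0.60). With 1 surrogate variable they were Ets2 (0.31), Zhx2 (0.55), Bcl6 (0.64), Foxq1 (0.41), Cdhr5 (1.39), Muc1 (1.43), Notch3 (1.11) and Jag1 (0.68). Ehf (1.16) passed without laminin replicate 1. For Krt7, values under settings other than DESeq2 are not given. Signs near 0 changed. Foxa2 was -0.00292 with library totals, -0.00577 with no filter, -0.00209 with a 1 CPM filter and -0.12 without letter B. Gabpa was 0.0105 with limma-voom, 0.00968 with the block and 0.35 without letter B. Without letter D, Sox4 was -0.0751, Nfib -0.0351, Foxp4 0.0862, Sox11 -0.0388, Elf2 -0.0608, Tjp1 -0.20, Krt8 0.0741 and Krt19 0.19. Without letter B, Foxa3 was -0.15 and Smad3 0.0832. With the offset, Sox4 was -0.0598, Nfib -0.20, Sox11 -0.12 and Elf2 -0.00502. With 1 surrogate variable, Sox4 was -0.0249, Nfib -0.0207, Foxp4 0.0366, Krt8 0.00512 and Krt19 0.0618. With 1 library left out, the ranges were -0.0622 to 0.0900 for Foxa2, -0.0626 to 0.11 for Sox4, -0.0621 to 0.22 for Sox9, -0.14 to 0.0701 for Gabpa, -0.27 to 0.0392 for Krt19, -0.0523 to 0.0963 for Nfib, -0.0876 to 0.00358 for Smad3, -0.0162 to 0.15 for Sox11 and -0.0144 to 0.35 for Tjp1. Depth limits Onecut1, Foxa1 and Foxa3, with at most 28 counts in any library.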
